A study of Mus musculus with 6 samples.

Results

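The mature red cell carries no nucleus, and its shape and its antigens depend on a small set of membrane proteins. Of these, 8 genes were followed in mouse leukemia cells with and without a Cre that deletes floxed *Phf6*, out of 54532 genes in the expression table. They were taken as the rows whose gene name was *Slc4a1*, *Epb42*, *Ank1*, *Sptb*, *Epb41*, *Rhag*, *Rhd* or *Kel*, and each name matched a single row. RNA was sequenced from GFP+ leukemia cells sorted from mouse bone marrow, in 3 *WT Phf6,RE9a* libraries (replicates 1, 2 and 3) and 3 *VC Phf6,RE9a* libraries (replicates 11, 12 and 13). Both groups began as lineage-negative fetal liver cells of *Phf6 fl/y* male mice, in which the single copy of *Phf6* on chromosome X is floxed. Both received the RE9a-GFP retrovirus, which drives the truncated RUNX1-ETO fusion, and both were passed serially through male recipients. *VC Phf6,RE9a* cells also carried *Vav1-Cre*, a recombinase under a promoter active throughout blood-forming cells, and *WT Phf6,RE9a* cells did not. The labels give neither the age nor the passage, and do not tell whether libraries of a group came from separate leukemias. If they did not, the p-values measure only the spread between these libraries, which may be technical.

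In the red cell, band 3 (*Slc4a1*) exchanges chloride for bicarbonate and is the main attachment of the membrane to the skeleton underneath. Ankyrin (*Ank1*) and its companion *Epb42* hold band 3 to a lattice of spectrin, whose erythroid beta chain is *Sptb*, and *Epb41* fastens the ends of spectrin to short actin filaments. *Rhag* and *Rhd* form the Rh complex, in which *Rhag* conducts ammonia and *Rhd* carries Rh antigens, while *Kel* is a membrane endopeptidase that bears the Kell antigens. These genes are switched on as erythroid precursors mature, and defects of the band 3, ankyrin and spectrin genes cause fragile, rounded or misshapen red cells.

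Total counts per library ran from 15675358 to 16817994. *Phf6* itself fell from 64.3 ± 7.15 to 20.3 ± 2.37 CPM (counts scaled by TMM to a common library size, mean ± SD, n = 3), and its log2 fold change was -1.66 (adjusted p = 9.32e-05, standard error 0.13, edgeR). In all comparisons, fold changes are *VC Phf6,RE9a* over *WT Phf6,RE9a* from edgeR's quasi-likelihood test, adjusted over the 14169 genes tested and called at an adjusted p under 0.05. Of 6 genes listed to check the leukemia cell label, 2 rose, 2 fell and 2 were not called. Those not called, *Ptprc* and *Spi1*, were read in all 6 libraries, at means of 22.7 and 82.4 CPM without Cre and of 41.1 and 94.9 CPM with it. *Cd34* fell from 383 ± 339 to 15.5 ± 14.0 CPM and *Kit* from 2420 ± 471 to 273 ± 70.1 CPM. *Mpo* rose from 36.3 ± 27.9 to 134 ± 42.5 CPM, and *Itgam* from 2.37 ± 2.04 to 11.9 ± 7.53 CPM with groups that overlapped. Levels compared between genes are the deposited FPKM, which are per length of gene.

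The red cell membrane genes stood higher in *VC Phf6,RE9a* cells. Of the 8 genes, 7 rose, 0 fell and *Epb41* was not called, where 21.5% of all genes tested rose, 22.7% fell and 44.2% thus changed in either direction. The increases ran from 1.89-fold for *Rhag* to 8.70-fold for *Slc4a1*, and the median log2 fold change of the 8 was 1.47, compared with 0.013 over all genes tested. In CPM, every *VC Phf6,RE9a* library lay above every *WT Phf6,RE9a* library for 8 of 8 genes, *Epb41* included, and the same was so for 28.9% of genes tested. Together the 8 genes came to between 1206 and 1362 CPM in *WT Phf6,RE9a* libraries and between 3083 and 3495 CPM in *VC Phf6,RE9a* libraries. Other erythroid markers rose beside them (11 of 11 tested), and their part in the result was not tested. In bulk RNA, more cells of a type and more RNA per cell cannot be told apart.

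**Figure D1:**
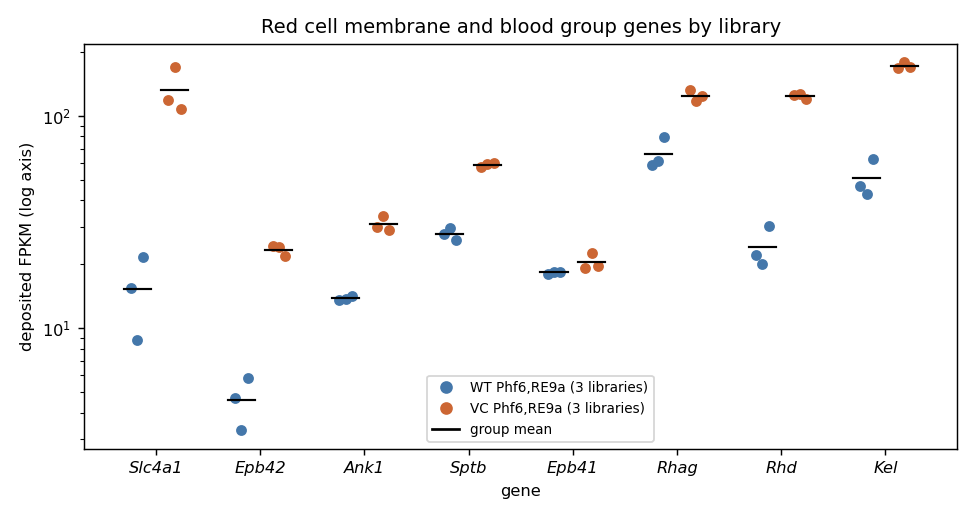
Deposited FPKM of the 8 genes (vertical axis, log scale) in the 3 libraries of each group, with the black line at the group mean. The *VC Phf6,RE9a* points lie above the *WT Phf6,RE9a* points for each gene, with the widest gap at *Slc4a1* (means 15.3 and 132) and the narrowest at *Epb41* (means 18.3 and 20.5).

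The gene for band 3 had the largest fold change of the 8. *Slc4a1* (ENSMUSG00000006574, chr11:102348824-102366203 on GRCm38, minus strand) was at 15.4, 8.82 and 21.6 FPKM in *WT Phf6,RE9a* replicates 1, 2 and 3 and at 119, 169.9 and 108 FPKM in *VC Phf6,RE9a* replicates 11, 12 and 13. The groups were far apart, but this gene was also the most uneven within each, with replicate 2 lowest and replicate 3 highest among *WT Phf6,RE9a* libraries and replicate 12 highest among *VC Phf6,RE9a* libraries. Its log2 fold change was 3.12 (standard error 0.33, adjusted p = 0.000328), from counts between 641 and 1764 to counts between 9057 and 14367.

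The genes of the proteins that anchor band 3 rose as well, *Epb42* by more than *Ank1*. *Epb42* (ENSMUSG00000023216, chr2:121017891-121037072, minus strand), an inactive relative of transglutaminases that binds band 3 and ankyrin, was at 4.71, 3.30 and 5.84 FPKM in *WT Phf6,RE9a* libraries and at 24.4, 24.0 and 21.8 FPKM in *VC Phf6,RE9a* libraries. It was the lowest of the 8 genes in *WT Phf6,RE9a* cells, and no *VC Phf6,RE9a* library came near that range. The log2 fold change was 2.35 (standard error 0.19, adjusted p = 0.00011), a 5.10-fold increase. *Ank1* (ENSMUSG00000031543, chr8:22974844-23150497, plus strand), the adaptor between band 3 and spectrin, was at 13.5, 13.8 and 14.2 FPKM in *WT Phf6,RE9a* libraries and at 30.0, 33.9 and 29.1 FPKM in *VC Phf6,RE9a* libraries. Its *WT Phf6,RE9a* values were nearly level, and the groups were well apart. *Ank1* rose 2.25-fold (log2 fold change 1.17, standard error 0.090, adjusted p = 8.72e-05). An antisense gene, *Gm15816*, shares 862 exon bases with *Ank1*, so reads there are uncertain without the strand setting, but it had at most 92 counts in any library.

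The beta spectrin gene rose by about as much as the ankyrin gene, and *Epb41* was not called. *Sptb* (ENSMUSG00000021061, chr12:76580488-76710547, minus strand), the erythroid beta spectrin, was at 27.9, 29.7 and 26.0 FPKM in *WT Phf6,RE9a* libraries and at 57.1, 59.2 and 59.7 FPKM in *VC Phf6,RE9a* libraries. Replicates of both groups lay close together and did not overlap, and the gene rose 2.12-fold (log2 fold change 1.09, standard error 0.091, adjusted p = 0.000124). *Sptb* was also the only member for which *WT Phf6,RE9a* replicate 3 was not the highest library of its group in CPM. *Epb41* (ENSMUSG00000028906, chr4:131923413-132075321, minus strand), which joins spectrin to actin and is made in many tissues besides blood, was at 18.05, 18.4 and 18.5 FPKM in *WT Phf6,RE9a* libraries and at 19.3, 22.6 and 19.6 FPKM in *VC Phf6,RE9a* libraries. The groups were separate by a small margin, and replicate 12 stood above its own group. Its log2 fold change of 0.17 (standard error 0.090) was not called (adjusted p = 0.164).

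Both genes of the Rh complex rose, and *Rhd* had the larger fold change. *Rhag* (ENSMUSG00000023926, chr17:40811126-40840754, plus strand) was at 58.7, 61.5 and 79.1 FPKM in *WT Phf6,RE9a* libraries, the highest mean of the 8 there, and at 133, 118 and 123 FPKM in *VC Phf6,RE9a* libraries. *WT Phf6,RE9a* replicate 3 was nearest to the other group, without reaching it, and the log2 fold change was 0.92 (standard error 0.13, adjusted p = 0.00117). *Rhd* (ENSMUSG00000028825, chr4:134864536-134896172, plus strand) was at 22.2, 20.01 and 30.1 FPKM in *WT Phf6,RE9a* libraries and at 126, 127 and 120.0 FPKM in *VC Phf6,RE9a* libraries. All *VC Phf6,RE9a* libraries were within a narrow band, with the smallest coefficient of variation of the 8 genes in that group (2.35% in CPM). *Rhd* rose 5.18-fold (log2 fold change 2.37, standard error 0.15, adjusted p = 4.95e-05).

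*Kel* (ENSMUSG00000029866, chr6:41686330-41704339, minus strand), which cleaves big endothelin and carries the Kell blood group, had the highest mean of the 8 genes in *VC Phf6,RE9a* cells. It was at 46.5, 42.8 and 62.8 FPKM in *WT Phf6,RE9a* libraries and at 167, 178 and 169 FPKM in *VC Phf6,RE9a* libraries. Replicate 3 was again the highest *WT Phf6,RE9a* library, and the groups did not overlap. *Kel* rose 3.40-fold (log2 fold change 1.77, standard error 0.15, adjusted p = 0.000131). Its partner *Xk*, the transporter-like protein bound to Kell and named here for that tie after its values were seen, was far lower, at 4.38 ± 1.95 FPKM in *WT Phf6,RE9a* cells against 11.2 ± 2.44 FPKM in *VC Phf6,RE9a* cells (SD, n = 3), and rose by 1.35 in log2 terms (standard error 0.30, adjusted p = 0.00848).

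The order of the levels differed between the groups. It depends on the gene length behind the FPKM, listed as 1594 bases for *Rhd* and 15942 for *Epb41*. In CPM, *Epb41* (294) was below only *Sptb* (340) among the members in *WT Phf6,RE9a* cells. In *WT Phf6,RE9a* cells the mean FPKM ran from *Rhag* (66.4) and *Kel* (50.7) through *Sptb* (27.8), *Rhd* (24.1), *Epb41* (18.3), *Slc4a1* (15.3) and *Ank1* (13.8) down to *Epb42* (4.62). There the ranges of *Rhag* and *Kel* overlapped, as did those of *Sptb* and *Rhd*, of *Epb41* and *Slc4a1*, and of *Slc4a1* and *Ank1*. In *VC Phf6,RE9a* cells *Kel* (172), *Slc4a1* (132), *Rhag* (125) and *Rhd* (124) led, each with a range that overlapped the next, followed by *Sptb* (58.7), *Ank1* (31.0), *Epb42* (23.4) and *Epb41* (20.5), of which only *Epb42* and *Epb41* overlapped. By group mean, *Slc4a1* thus rose past 4 of the other genes, but it stood above *Rhag* and *Rhd* only in replicate 12 (169.9 against 118 and 127). It was below both in replicates 11 (119 against 133 and 126) and 13 (108 against 123 and 120.0). *Epb41* came to lie below *Epb42* at the end of the order.

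The libraries of a group did not deviate alike for all genes. *WT Phf6,RE9a* replicate 3 was the highest of its group in CPM for 7 of the 8 genes, and replicate 2 was the lowest for *Slc4a1*, *Epb42*, *Rhd* and *Kel*. Among *VC Phf6,RE9a* libraries, replicate 12 was highest for *Slc4a1*, *Ank1*, *Epb41*, *Rhd* and *Kel*, and replicate 13 was lowest for *Slc4a1*, *Ank1*, *Epb42* and *Rhd*. The coefficient of variation in CPM had a median of 19.2% over the 8 genes in *WT Phf6,RE9a* cells (from 1.84% for *Epb41* to 42.1% for *Slc4a1*) and of 6.02% in *VC Phf6,RE9a* cells (from 2.35% for *Rhd* to 24.3% for *Slc4a1*).

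The FPKM ratio between partners shows how evenly they stood in each library. Ratios of 8 pairs, those with *Xk* and nonerythroid relatives included, were chosen after the values were seen and are given without a test. *Slc4a1* over *Ank1* went from 1.10 ± 0.441 to 4.23 ± 0.691 (SD, n = 3), and *Slc4a1* over *Epb42* from 3.21 ± 0.518 to 5.64 ± 1.25. In both pairs the groups did not overlap, so the band 3 transcript was higher relative to these binding partners in every *VC Phf6,RE9a* library. *Rhag* over *Rhd* fell from 2.78 ± 0.251 to 1.00 ± 0.0662, and *Ank1* over *Epb41* went from 0.755 ± 0.0125 to 1.51 ± 0.0407, again without overlap. *Sptb* over *Ank1* was 2.02 ± 0.167 in *WT Phf6,RE9a* cells against 1.90 ± 0.152 in *VC Phf6,RE9a* cells, and *Kel* over *Xk* was 12.3 ± 2.57 against 15.8 ± 3.13, with groups that overlapped in both pairs.

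The sequence just before the start of transcription was read for members that rose together, to show the letters that erythroid factors are known to bind. RefSeq's promoter table for GRCm38.p6 holds *Sptb*, *Epb41*, *Epb42*, *Rhag*, *Rhd* and *Kel*, with 3 starts for *Epb41*. *Slc4a1* and *Ank1* have no entry there. The 250 bases upstream of the RefSeq start are given from 5′ to 3′ on the strand of the gene for the 5 of these genes that rose: *Epb42* (chr2:121036878-121037127, minus strand), *Rhd* (chr4:134864286-134864535, plus strand), *Kel* (chr6:41704326-41704575, minus strand), *Rhag* (chr17:40810899-40811148, plus strand) and *Sptb* (chr12:76710548-76710797, minus strand). Capitals mark matches to the GATA letters (AGATAA as well as TGATAA, and likewise AGATAG as well as TGATAG) and to CCNCNCCC, both searched on both strands. The second pattern, called CACC letters here, takes in the CACC letters bound by *Klf1* and its relatives but is wider. The motifs were chosen after the values were seen.
Epb42: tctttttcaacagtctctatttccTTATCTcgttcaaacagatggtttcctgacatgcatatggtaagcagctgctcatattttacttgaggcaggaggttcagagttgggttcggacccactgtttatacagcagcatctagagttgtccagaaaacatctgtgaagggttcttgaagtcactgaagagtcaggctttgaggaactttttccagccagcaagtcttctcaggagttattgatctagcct
Rhd: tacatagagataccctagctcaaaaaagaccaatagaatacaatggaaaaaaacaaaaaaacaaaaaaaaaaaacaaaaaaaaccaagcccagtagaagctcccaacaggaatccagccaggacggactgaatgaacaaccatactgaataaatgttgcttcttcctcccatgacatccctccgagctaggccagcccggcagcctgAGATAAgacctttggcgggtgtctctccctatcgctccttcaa
Kel: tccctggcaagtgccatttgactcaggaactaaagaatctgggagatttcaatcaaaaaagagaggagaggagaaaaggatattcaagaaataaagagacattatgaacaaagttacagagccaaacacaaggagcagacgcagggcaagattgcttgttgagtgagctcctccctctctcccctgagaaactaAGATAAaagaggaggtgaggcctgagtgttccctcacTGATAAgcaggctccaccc
Rhag: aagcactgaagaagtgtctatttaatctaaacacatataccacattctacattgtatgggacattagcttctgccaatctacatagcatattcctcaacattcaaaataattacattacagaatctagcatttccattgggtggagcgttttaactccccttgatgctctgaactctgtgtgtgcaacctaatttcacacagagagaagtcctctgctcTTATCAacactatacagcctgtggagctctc
Sptb: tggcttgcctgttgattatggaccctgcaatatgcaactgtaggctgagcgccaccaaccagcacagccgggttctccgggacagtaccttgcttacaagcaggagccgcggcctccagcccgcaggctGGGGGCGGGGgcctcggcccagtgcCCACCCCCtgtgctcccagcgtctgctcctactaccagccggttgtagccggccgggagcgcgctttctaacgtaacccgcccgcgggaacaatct

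A GATA match lay in 5 of the 8 windows of these 6 members, 1 each for 5 members, and in 26.5% of 32851 promoter windows of the same length. In *Rhd* it ran from 43 to 38 bases before the RefSeq start, and in *Kel* from 56 to 51 and again from 19 to 14. In *Rhag* it ran from 31 to 26 on the opposite strand, and in *Epb42* from 226 to 221 on the opposite strand. The deposited *Epb42* gene begins at base 121037072, inside this window, so the match lies much nearer to the deposited start than to the RefSeq start. The windows of *Kel* and *Rhag* also run into the deposited genes, by less. *Epb41*, which was not called, also held a GATA match in the window of 1 of its 3 starts. CACC letters, in the wide sense of CCNCNCCC, were found in 3 of the 8 windows, for *Sptb* and *Epb41* only, and in 45.9% of all windows. The 3 matches in *Sptb* include a pair that overlap each other, GGGGGCGG and GGGCGGGG. Of all these matches, only CCACCCCC in *Sptb* spells CACC itself. Letters bound by RUNX factors (TGTGGT or TGCGGT, both strands, not capitalised) were found for *Rhag* only, from 212 to 207 bases before its start, and in 18.6% of all windows. These matches describe the letters and do not show that a factor was bound.

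Among genes of the other skeleton proteins, more rose than fell. Of 12 skeleton partners tested, 6 rose (50%), 1 fell (8.33%) and 5 were not called. Over all genes tested, 21.5% rose and 22.7% fell. The median log2 fold change of the partners was 0.31. The actin-capping *Tmod1* (log2 fold change 1.95, standard error 0.15) and the actin-binding *Tpm1* (1.48, standard error 0.089) rose, with adjusted p of 8.57e-05 and 3.96e-05, and *Gypc*, the glycophorin held by *Epb41*, rose by 0.50 (standard error 0.13, adjusted p = 0.0178), a call lost without *WT Phf6,RE9a* replicate 1 (0.41) or *VC Phf6,RE9a* replicate 12 (0.48). *Actb*, whose product forms the short filaments of the skeleton and is used by every cell, was at -0.17 (standard error 0.16, adjusted p = 0.4). The 1 that fell, named after its values were seen, was *Tpm3*, a tropomyosin like *Tpm1* (-0.60, standard error 0.084, adjusted p = 0.00109). A second fall was called with RLE size factors (*Add3*, -0.28), without *WT Phf6,RE9a* replicate 2 (*Add3*, -0.37) and without *VC Phf6,RE9a* replicate 12 (*Add2*, -1.25).

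Among 30 other genes of blood group antigens, 23 were tested, of which 13 rose (56.5%), 2 fell (8.70%) and 8 were not called. The shares over all genes tested were 21.5% that rose and 22.7% that fell. The median log2 fold change of the list was 0.50. *Ermap*, which carries the Scianna antigens, rose from 272 ± 53.7 to 933 ± 14.4 CPM (log2 fold change 1.78, standard error 0.15, adjusted p = 0.000112). *Smim1*, the Vel antigen, rose by 1.51 (standard error 0.15, adjusted p = 0.000224) and *Abcg2*, the exporter that carries the Junior antigen, by 1.27 (standard error 0.14, adjusted p = 0.000445). Of the genes with the highest FPKM, *Bsg*, the Ok antigen and a chaperone of lactate transporters, rose by 0.60 (standard error 0.082, adjusted p = 0.00101), and *Prnp* was at 0.12 (standard error 0.16, adjusted p = 0.574). The 2 largest log2 fold changes of the list, named after they were seen, belonged to low genes: *Bcam* had 1 to 4 counts per *WT Phf6,RE9a* library and 56 to 149 per *VC Phf6,RE9a* library, and the urea transporter *Slc14a1* had 4 to 28 and 172 to 574. The 2 that fell were *Gcnt2*, which builds the I antigen (-1.31, adjusted p = 0.000568), and *Cd44*, the Indian antigen (-0.31, adjusted p = 0.0317), also named after their values were seen. The call for *Cd44* was lost without *WT Phf6,RE9a* replicate 1 (-0.24) or *VC Phf6,RE9a* replicate 11 (-0.33), 12 (-0.32) or 13 (-0.26). The 7 genes not tested, among them *Icam4* and *Abo*, had at most 16 counts in any library.

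Genes of membrane transport and raft proteins of the red cell gave 5 that rose (55.6%), 2 that fell (22.2%) and 2 not called of 9 tested. Their median was 0.63. Of all genes tested, 21.5% rose and 22.7% fell, so the falls here were near that share. *Stom*, the raft protein stomatin, rose from 18.2 ± 4.62 to 135 ± 18.7 CPM (log2 fold change 2.88, standard error 0.19, adjusted p = 5.46e-05), close to *Slc4a1* in size. The Gardos channel *Kcnn4* rose by 1.06 (standard error 0.12, adjusted p = 0.000497) and the glucose transporter *Slc2a1* by 0.50 (standard error 0.12, adjusted p = 0.0106). The lactate transporter *Slc16a1* fell (-1.09, standard error 0.11, adjusted p = 0.000228), and the raft protein *Flot1* fell too (-0.37, standard error 0.10, adjusted p = 0.0165), a call lost without *VC Phf6,RE9a* replicate 11 (-0.37), 12 (-0.39) or 13 (-0.35).

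**Figure D2:**
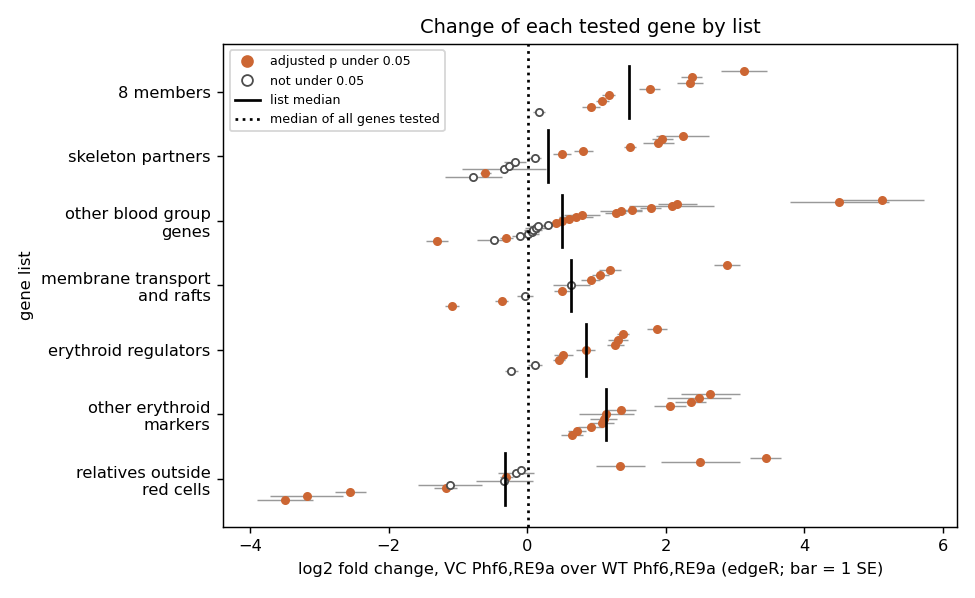
Log2 fold change of each tested gene (horizontal axis, *VC Phf6,RE9a* over *WT Phf6,RE9a* from edgeR, bars of 1 standard error) in 7 gene lists, with filled points for an adjusted p under 0.05, a solid line at the median of each list and a dotted line at the median of all genes tested. The 8 genes have the rightmost median (1.47) and the relatives outside red cells the only median below 0 (-0.32).

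Relatives of the 8 genes that serve other tissues moved in both directions, with more falls than increases. Of 26 paralogs, 12 were tested, of which 3 rose (25%), 5 fell (41.7%) and 4 were not called, with a median of -0.32. Over all genes tested, 21.5% rose and 22.7% fell, and the paralogs called lower ranged from 4 to 7 over the other settings. *Sptan1*, the alpha spectrin of nonerythroid cells, fell from 290 ± 34.9 to 49.4 ± 16.2 CPM (log2 fold change -2.55, standard error 0.23, adjusted p = 0.000161). *Sptan1* over *Sptb* in FPKM went from 0.773 ± 0.0430 to 0.0623 ± 0.0205. The transcript of the erythroid beta chain was thus the more abundant in all 6 libraries, and by more in *VC Phf6,RE9a* cells. Of the other beta spectrins, *Sptbn1*, which is found in most tissues, was at -0.31 (standard error 0.094, adjusted p = 0.032), a call lost when any library but *WT Phf6,RE9a* replicate 3 was left out (-0.25 to -0.33), and *Sptbn4*, known from neurons, rose from 4.24 ± 0.691 to 46.2 ± 11.4 CPM (3.44, standard error 0.23, adjusted p = 5.09e-05), though in FPKM it remained at 4.76 against 58.7 for *Sptb*. *Epb41l5*, a relative of *Epb41* at epithelial junctions, fell from 19.9 ± 9.77 to 1.75 ± 0.335 CPM (-3.50, standard error 0.40, adjusted p = 0.000475). *Slc4a2*, the anion exchanger of most other cells, was at 9.90 ± 0.775 and 9.28 ± 0.298 FPKM (log2 fold change -0.083, adjusted p = 0.464) and is named for its tie to *Slc4a1* after its values were seen. *Slc4a1* over *Slc4a2* went from 1.54 ± 0.647 to 14.4 ± 4.07, with *WT Phf6,RE9a* replicate 2 the only library in which *Slc4a2* was the higher of the pair. Of the other Rh family genes, *Rhbg* had 0 counts in every library and *Rhcg* at most 3.

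**Figure D3:**
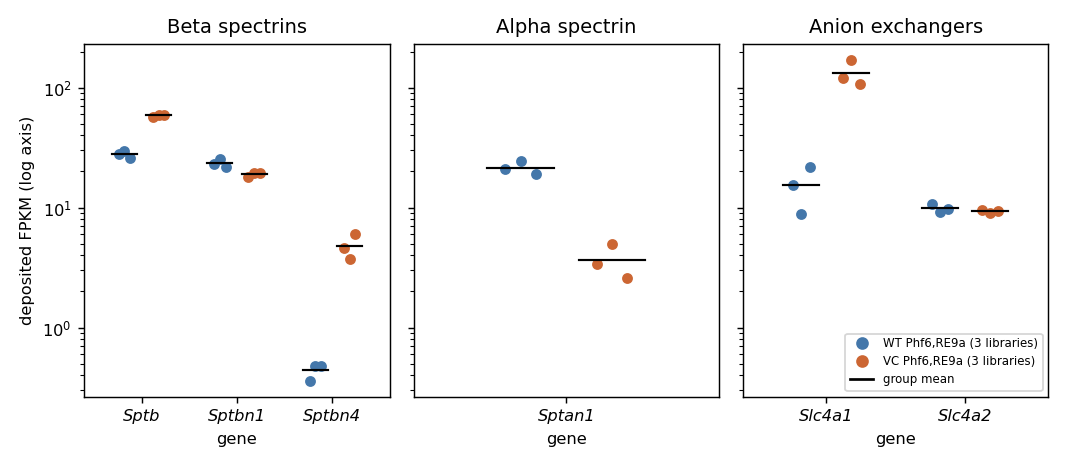
Deposited FPKM (vertical axis, log scale) of erythroid and nonerythroid beta spectrins, the nonerythroid alpha spectrin *Sptan1* and the anion exchangers *Slc4a1* and *Slc4a2* in the 3 libraries of each group, with the black line at the group mean. *Sptb*, *Sptbn4* and *Slc4a1* lie higher in *VC Phf6,RE9a* cells, *Sptan1* and, by less, *Sptbn1* lie lower, and the *Slc4a2* points overlap.

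Regulators of red cell genes rose more often than not. Of 9 tested, 7 rose (77.8%), 0 fell and 2 were not called, with a median of 0.85. The shares over all genes tested were 21.5% that rose and 22.7% that fell. Among those that rose, *Zfpm1*, named after its values were seen, lost its call without *VC Phf6,RE9a* replicate 11 (0.50) or 12 (0.42). *Klf1*, the erythroid factor that binds CACC letters, rose from 65.2 ± 10.2 to 158 ± 3.84 CPM (log2 fold change 1.27, standard error 0.12, adjusted p = 0.000179). The erythropoietin receptor gene *Epor* rose by 1.38 (standard error 0.086, adjusted p = 4.44e-05), *Lmo2*, a bridge in the GATA1 complex, by 1.88 (standard error 0.14, adjusted p = 8.62e-05), and *Ldb1*, its scaffold, by 0.46 (standard error 0.082, adjusted p = 0.0034). The 2 that were not called, named after their values were seen, were *Gata1*, at 175 ± 19.8 and 190 ± 6.78 CPM (0.12, standard error 0.10, adjusted p = 0.375), and *Tal1*, at 407 ± 23.2 and 347 ± 17.9 CPM (-0.23, standard error 0.089, adjusted p = 0.0694). Without *WT Phf6,RE9a* replicate 2, *Tal1* was called lower (-0.28, adjusted p = 0.0395).

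Markers of the erythroid line itself moved with the membrane genes. All 11 of 11 tested rose, with a median of 1.14, where 21.5% of all genes tested rose. Of them *Hemgn* lost its call without *WT Phf6,RE9a* replicate 1 (1.31) or *VC Phf6,RE9a* replicate 11 (1.17), 12 (1.04) or 13 (1.22), and *Slc25a37* without *VC Phf6,RE9a* replicate 12 (0.53). The summed level of the list was 2527 to 3723 CPM in *WT Phf6,RE9a* libraries against 7272 to 8113 CPM in *VC Phf6,RE9a* libraries. The alpha globin genes *Hba-a1* and *Hba-a2*, whose near-identical copies make the split of reads uncertain, rose by 2.36 (standard error 0.23, adjusted p = 0.000225) and 2.64 (standard error 0.43, adjusted p = 0.00216), and the beta globin *Hbb-bs* by 0.92 (standard error 0.18, adjusted p = 0.00461). The mean of the summed erythroid level was 2.36 times as high in *VC Phf6,RE9a* as in *WT Phf6,RE9a* cells and that of the 8 membrane genes 2.57 times.

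Marker lists of other cells moved as well, in both directions, and their part was not tested. For comparison, 21.5% of all genes tested rose and 22.7% fell. Mast cell and basophil markers fell in 9 of 10, with a summed level of 16799 to 26091 CPM in *WT Phf6,RE9a* libraries against 4921 to 5334 CPM in *VC Phf6,RE9a* libraries. Among them *Cpa3* and *Fcer1a* fell by 4.62 and 6.83 on the log2 scale (adjusted p = 0.000103 and 1.87e-05), as did the receptor *Kit* by 3.15 (adjusted p = 7.75e-05). Neutrophil markers rose in 7 of 7, from 156 to 501 CPM in sum to between 988 (replicate 13) and 3517 (replicate 11), with *Ltf*, *Camp* and *Ngp* at 3.10, 3.39 and 2.90 (adjusted p = 0.0048, 0.00144 and 0.00579). Replicate 11, the highest in neutrophil markers, was the highest *VC Phf6,RE9a* library in CPM for *Epb42* and *Rhag* of the 8 genes. Megakaryocyte markers fell in 2 of 4 tested and rose in 1, with sums of 247 to 363 CPM and 38.0 to 44.6 CPM. *Itga2b* and *Gp1ba* fell by 4.05 and 1.53 (adjusted p = 2.84e-05 and 0.000196). Most of the sum came from these 2 genes, at means of 237 and 69.9 CPM in *WT Phf6,RE9a* cells and 14.3 and 24.3 CPM in *VC Phf6,RE9a* cells. *Gp9*, named after its values were seen, was the 1 that rose (3.39, adjusted p = 0.00455). It had 0 to 3 counts per *WT Phf6,RE9a* library and 16 to 24 per *VC Phf6,RE9a* library. *Pf4* was not called (-0.055, adjusted p = 0.945) and had 8 to 35 counts in each library, and *Gp1bb* had 0 counts in every library.

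Markers of macrophages and lymphocytes were low in all libraries. Macrophage markers would show the cells that nurse or engulf red cells in marrow. They rose in 1 of 6 tested (16.7%, against 21.5% of all genes tested), with sums of 12.8 to 23.7 CPM and 29.6 to 34.2 CPM. *Adgre1*, *C1qa* and *C1qb* were at 0.45, 0.62 and 0.76 (adjusted p = 0.188, 0.212 and 0.154). B cell markers rose in 4 of 4 tested, with sums of 0.611 to 1.10 CPM and 9.03 to 26.9 CPM, and *Cd79a* and *Cd79b* were both at means under 1 CPM in *WT Phf6,RE9a* cells and at 3.94 and 4.29 CPM in *VC Phf6,RE9a* cells. Of the T cell markers only *Lck* was tested, and it rose by 3.25 (adjusted p = 0.000562). The sums were 1.10 to 1.57 CPM and 6.30 to 8.80 CPM, and *Cd3d*, *Cd3e* and *Cd3g* had at most 6 counts in any library.

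**Figure D4:**
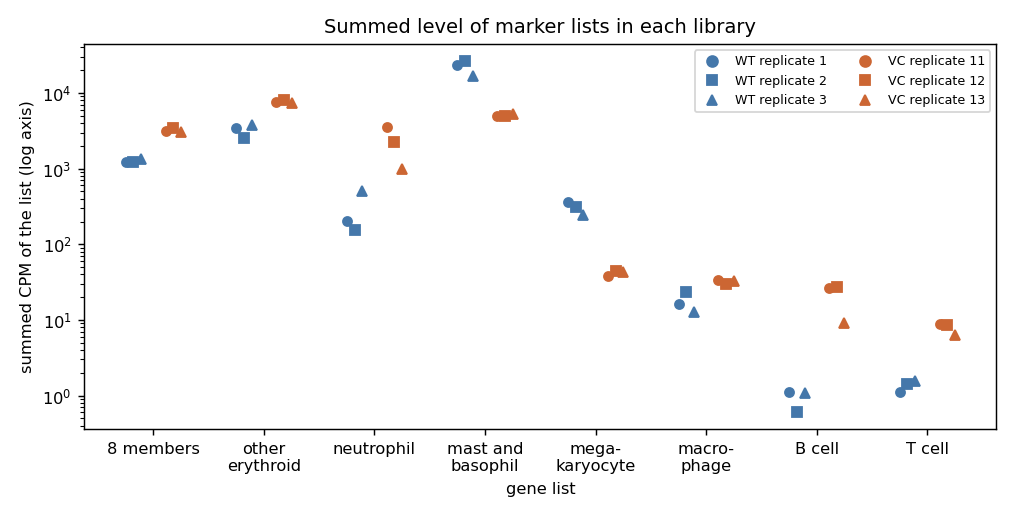
Summed CPM (vertical axis, log scale) of the 8 membrane genes and of marker lists of 7 cell types in each library, with a symbol for each replicate. The sums of the 8 genes and of the other erythroid markers lie higher in all 3 *VC Phf6,RE9a* libraries. Those of mast cell and basophil markers and of megakaryocyte markers, the latter carried by *Itga2b* and *Gp1ba*, lie lower. Neutrophil sums spread most within the groups (156 to 501 CPM and 988 to 3517 CPM).

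The genes whose pattern over the 6 libraries was most like that of *Slc4a1* were sought among 14168 others, by the root mean square difference of log2 CPM centred on each gene's mean. The nearest were *Pkhd1l1* (0.19), a large membrane receptor-like protein, *Hid1* (0.21), *Hebp1* (0.21), which binds heme, the noncoding gene *9830132P13Rik* (0.22) and *Stom* (0.25). Each rose with groups that did not overlap, which the choice by likeness to *Slc4a1* largely fixed in advance. *Pkhd1l1* went from 48.4 ± 17.3 to 498 ± 57.1 CPM and *Hebp1* from 7.01 ± 2.29 to 52.7 ± 10.8 CPM. *9830132P13Rik* had only 3 to 9 counts in *WT Phf6,RE9a* libraries. In the same order, *Epb42* ranked 65 (0.46), *Rhd* 86 (0.49), *Kel* 379 (0.76), *Ank1* 1051 (1.08), *Sptb* 1287 (1.15), *Rhag* 1441 (1.19) and *Epb41* 5289 (1.56). The measure weighs the size of the change between groups, and with 6 libraries in 2 groups it is a description of these libraries.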

How the data were processed

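RNA-seq of GFP+ leukemia cells was analysed in 3 *WT Phf6,RE9a* and 3 *VC Phf6,RE9a* libraries. The deposited table holds raw read counts for each gene. It also holds FPKM, which the authors derived from the counts, the listed gene length and a scaled library size that is constant within each library. Columns of the authors' own DESeq2 comparison, which were not used, give the signal as group means of normalized counts. They also give log2 values of the fold change by the authors and the authors' p-values. The submitters' processing notes list Bowtie 0.12.0 and mm8, whereas 98.3% of 54409 genes with an identifier in GENCODE M21 had the same start and end on GRCm38, the 8 members included, so coordinates are given on GRCm38. The counting tool, annotation release and strand setting are not given in the sources used here.

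Counts were filtered (filterByExpr), scaled by TMM and tested with edgeR 4.0.16 in R 4.3.3, after testing on simulated data, with Benjamini-Hochberg adjustment at 0.05. Standard errors are the log2 fold change over the square root of F. CPM use the TMM-scaled library size. A count of 3, the limit that 0 counts allow, came to 0.178 to 0.191 CPM of the total count, for counting error only. Alternatives were DESeq2 1.42.0, RLE size factors, a minimum of 10 counts in each library, no filter, limma 3.58.1 on log2(FPKM + 1), and each library left out in turn. Plots were made in Python 3.11.15 (matplotlib 3.10.9). The members and lists (skeleton partners, blood group genes, membrane transport, paralogs, erythroid regulators, and markers of erythroid, mast and basophil, neutrophil, megakaryocyte, macrophage, B and T cells) were chosen with earlier results of these data known. Besides the members and *Phf6*, genes were named if they had the 3 smallest p or 2 highest FPKM of a list, were the first 3 of a marker list, or were the 5 most like *Slc4a1*. The 6 genes of the leukemia cell label list are all named. Some genes that this rule takes are not reported here. Others are marked as named after their values were seen. *Ahsp* was not analysed here. Promoter sequences are from RefSeq (GRCm38.p6).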

Additional observations from a re-analysis of the deposited data

How the results depend on the processing

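Over 11 other settings, the members called higher were 7 and those called lower 0 in each, and all 88 values of the 8 genes kept their direction and their side of the threshold. Leaving out single libraries gave log2 fold changes of 2.84 to 3.45 for *Slc4a1*, 2.15 to 2.55 for *Epb42*, 1.11 to 1.21 for *Ank1*, 1.03 to 1.12 for *Sptb*, 0.10 to 0.22 for *Epb41*, 0.82 to 1.06 for *Rhag*, 2.25 to 2.56 for *Rhd* and 1.65 to 1.95 for *Kel*. Genes called higher over the table ranged from 2179 to 3132 and lower from 2511 to 3383. Of 307 values of the 28 other named genes, 296 were the same in this sense. *Gypc* lost its call without *WT Phf6,RE9a* replicate 1 (0.41) or *VC Phf6,RE9a* replicate 12 (0.48), *Flot1* without *VC Phf6,RE9a* replicate 11, 12 or 13 (-0.37, -0.39 and -0.35) and *Sptbn1* without any library but *WT Phf6,RE9a* replicate 3 (-0.25 to -0.33), with adjusted p up to 0.0609, 0.0647 and 0.135. Called falls went from 1 to 2 among skeleton partners, 2 to 1 among blood group and among transport genes and 0 to 1 among regulators, as libraries were left out (for skeleton partners also with RLE). Called increases ranged from 5 to 6 among skeleton partners and among transport genes, 9 to 14 among blood group genes, 2 to 3 among paralogs and 6 to 7 among regulators. Of blood group genes named after their values were seen, *Abcb6* (0.70, adjusted p = 0.0499, edgeR) kept its call only with at least 10 counts in every library. *Abcc4* lost its call with limma and without any library but *WT Phf6,RE9a* replicate 3, and *Ackr1* and *Aqp1* without some single libraries. Among markers, *Prss34* lost its call without *WT Phf6,RE9a* replicate 1 (-1.19) or 3 (-1.66) or *VC Phf6,RE9a* replicate 11 (-1.69), and *Mpo* without *WT Phf6,RE9a* replicate 1 or *VC Phf6,RE9a* replicate 11 (both 1.65). *Prnp*, never called, went from 0.12 to -0.022 without *VC Phf6,RE9a* replicate 13 (adjusted p = 0.932) and to 0.28 without replicate 12. On log2(FPKM + 1), which by construction understates changes of low genes, *Sptbn4* was at 1.98, *Epb41l5* at -1.03, *Hid1* at 1.37 and *9830132P13Rik* at 0.79. With at least 10 counts in every library, *9830132P13Rik* had no value. No paired analysis was possible because the groups share no replicate numbers. With 3 libraries a group, a difference of the size seen for *Epb41* was not called, and genes at a few counts in *WT Phf6,RE9a* libraries, such as *Bcam*, have no precise fold.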

Other observations

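The nearest tested coding gene on either side of each of the 8 genes was read after the values of the members were seen. Of these 16 neighbours, 4 rose, 3 fell and 9 were not called, which is near the shares over all genes tested (21.5% rose and 22.7% fell). *Tmem50a*, 1676 bases from *Rhd*, was at 0.26 (standard error 0.097, adjusted p = 0.0644) and *Ccndbp1*, 986 bases from *Epb42*, at 0.23 (standard error 0.093, adjusted p = 0.0797). *Plekhg3*, which shares 1 exon base with *Sptb* on the opposite strand, fell by 1.47 (standard error 0.20, adjusted p = 0.00107). *Trpv5*, an epithelial calcium channel 5560 bases from *Kel*, rose from 1.74 to 5.97 CPM (log2 fold change 1.77, standard error 0.29, adjusted p = 0.00224). *Epb41* and *Rhd* lie on the same chromosome, 2789 kilobases apart.

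*Ank3*, the ankyrin of neurons and epithelia, was too low to be tested and is named after its values were seen. It had 6, 9 and 103 counts in *WT Phf6,RE9a* replicates 1, 2 and 3 and 0 counts in the 3 *VC Phf6,RE9a* libraries.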
